A study of Mus musculus with 6 samples.

Results

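The genes described here encode the machinery that copies DNA in S phase: origin licensing factors, the replicative helicase and its activators, DNA polymerases, the sliding clamp and its loader, enzymes of nucleotide supply, and factors that guard the fork and rebuild chromatin behind it. They were chosen by gene symbol from a list of 42, all of which were found among the 23518 genes of the deposited table. RNA was sequenced from mouse ear skin 1 day after 10 mg of a cream with 5% imiquimod was put on the ear. Imiquimod is a Toll-like receptor agonist that induces psoriasis-like inflammation. The groups were 3 wild-type (WT) samples and 3 samples labelled HdR, which the series' design text was read to mean HOIL1 without its RING1 domain. HOIL1, the product of Rbck1, is a subunit of the linear ubiquitin chain assembly complex. All 6 samples received imiquimod, so the comparison is between genotypes in treated skin. The labels give no strain, age or sex, and name no promoter or cell type to which the deletion would be limited. They do not say that the samples of a genotype came from separate mice, and the p values measure only the spread between these samples, which may be technical.

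Replication starts at origins, where the origin recognition complex, CDC6 and CDT1 load the ring-shaped MCM helicase before S phase. CDC45 and the GINS complex then turn the ring into an active helicase, primase and polymerase alpha lay down primers, and polymerases delta and epsilon extend them, with the PCNA clamp holding polymerases to DNA. Many of these genes are transcribed under E2F control as cells enter S phase, and in skin such cells lie mainly in the basal epidermis and the hair matrix. In whole tissue, fewer cycling cells and less RNA per cycling cell cannot be told apart.

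The values are aligned bases summed per gene, and levels are given as bases per Mb of scaled library. The libraries held 4433 to 5966 Mb; with read pairs of 300 bases, a level of 1 base per Mb stood for 11.7 to 23.6 read pairs. Genes were kept for testing where 3 or more libraries reached 1 base per Mb, which all 42 genes did, and the thinnest values, those of Orc1 and Clspn in HdR replicate 3, rested on 18 read pairs each. A change is the HdR mean less the WT mean of log2(value + 1), so that changes of genes with low levels come out too small. Changes were tested with limma and Benjamini-Hochberg adjustment over the 15049 genes that passed the filter, with a threshold of 0.05. Rbck1, the targeted gene, stood at 66.6, 55.1 and 64.1 in WT replicates 1 to 3 and at 23.9, 13.0 and 19.7 in HdR replicates 1 to 3. Its level was lower in every HdR sample than in every WT sample, although a sum over the gene does not show the deleted part. The leading principal component of the libraries carried 73.4% of the variance and separated the genotypes. The relation of a gene's level to its transcript length also differed between libraries, as given with the length results. The libraries stood in the same order on the component as in that relation, from WT replicate 3 (-59.9) to HdR replicate 2 (63.8). The part of the component due to genotype alone was not tested.

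Promoters of the replication genes are shown first because E2F sites are the best known shared feature of this gene set. RefSeq (GRCm38.p6) gave a window of 250 bases before to 50 bases after a start for 35 of the 42 genes, in 40 windows. Mcm4, Gins1, Gins2, Gins4, Prim2, Pole and Rfc2 had no entry. The letters TTTCCCGC, TTTCGCGC, TTTGCCGC and TTTGGCGC, common forms of the E2F site, were searched on both strands, where matches to different letters can overlap. They occurred in the windows of 15 of the 35 genes and in 37.5% of the 40 windows, beside 2.26% of all 32851 windows of the same length. Promoters of 5 genes are printed, chosen after the values were seen: Mcm5, Mcm6 and Hells fell in HdR skin, Pcna and Dut had higher HdR levels.
Capitals mark the E2F letters, and 2 runs, in Mcm5 and Mcm6, hold overlapping matches on opposite strands. The windows are Mcm5 at chr8:75109259-75109558, plus strand; Mcm6 at chr1:128359656-128359955, minus strand; Hells at chr19:38930740-38931039, plus strand; Pcna at chr2:132253131-132253430, minus strand; and Dut at chr2:125247265-125247564, plus strand.
Mcm5: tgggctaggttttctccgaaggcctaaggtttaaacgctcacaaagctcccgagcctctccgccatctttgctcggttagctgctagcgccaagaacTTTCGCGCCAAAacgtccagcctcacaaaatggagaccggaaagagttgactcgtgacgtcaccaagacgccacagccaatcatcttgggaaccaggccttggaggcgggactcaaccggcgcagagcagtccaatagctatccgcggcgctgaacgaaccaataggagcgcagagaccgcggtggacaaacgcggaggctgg
Mcm6: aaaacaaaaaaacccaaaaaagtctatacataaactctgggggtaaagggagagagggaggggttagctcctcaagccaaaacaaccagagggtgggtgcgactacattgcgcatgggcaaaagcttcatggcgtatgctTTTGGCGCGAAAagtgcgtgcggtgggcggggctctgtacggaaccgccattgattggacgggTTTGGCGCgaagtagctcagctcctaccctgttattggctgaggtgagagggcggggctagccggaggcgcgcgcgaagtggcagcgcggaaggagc
Hells: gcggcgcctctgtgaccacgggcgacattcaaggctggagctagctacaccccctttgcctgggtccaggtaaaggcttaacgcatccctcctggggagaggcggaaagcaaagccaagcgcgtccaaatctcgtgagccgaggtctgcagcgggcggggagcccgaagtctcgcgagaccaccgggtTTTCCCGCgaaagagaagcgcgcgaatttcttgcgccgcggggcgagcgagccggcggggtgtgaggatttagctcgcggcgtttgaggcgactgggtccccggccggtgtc
Pcna: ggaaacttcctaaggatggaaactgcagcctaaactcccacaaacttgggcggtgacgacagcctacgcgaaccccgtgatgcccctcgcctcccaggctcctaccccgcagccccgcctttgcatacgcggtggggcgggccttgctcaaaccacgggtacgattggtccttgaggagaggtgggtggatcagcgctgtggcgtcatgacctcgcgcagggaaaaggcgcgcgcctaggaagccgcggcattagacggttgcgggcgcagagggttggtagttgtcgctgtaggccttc
Dut: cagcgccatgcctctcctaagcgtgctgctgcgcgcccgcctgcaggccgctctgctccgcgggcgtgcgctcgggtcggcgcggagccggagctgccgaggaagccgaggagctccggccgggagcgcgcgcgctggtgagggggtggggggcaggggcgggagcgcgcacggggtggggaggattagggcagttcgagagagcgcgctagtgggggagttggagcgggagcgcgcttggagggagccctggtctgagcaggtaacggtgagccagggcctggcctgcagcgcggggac
The Mcm5 window held 2 matches, that of Mcm6 held 3 and that of Hells held 1, while none of these letters occurred in the windows of Pcna and Dut. The Dut window lies wholly inside the gene, whose annotated start is at chr2:125247190. The bases before that start were not searched, so a match there cannot be told. Among genes with a window, 8 of the 13 that fell and 7 of the 22 others had a match. Mcm3, Mcm7, Rfc3 and Gins3 had matches and did not pass the test. The letters CCAAT, the core of the NF-Y site, occurred in the windows of 22 of the 35 genes and in 60% of the windows, beside 37.4% of all windows. The windows of replication genes were richer in G and C than others, with a median of 60.7% against 52.7%. A match is a description of letters and does not show that a factor bound.

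Of the 42 replication genes, 14 fell in HdR skin, 1 rose and 27 did not pass the test. Those that fell were Mcm2, Mcm5, Mcm6, Mcm10, Pola1, Pold1, Pole, Rfc1, Lig1, Rrm1, Clspn, Chaf1a, Hells and Uhrf1, and the gene that rose was Dut. This is 33.3% lower and 2.38% higher, beside 17.9% lower and 12.7% higher among all genes tested. The median log2 change of the 42 genes was -0.36, beside -0.13 over all genes, and 32 of them had a negative change. All HdR samples lay below all WT samples for 21 of the genes and above them for 4, beside 30.7% and 20.9% of all genes tested. With the replicate number as a block, 15 fell and 4 rose, beside 27.2% and 18.3% of all genes: Orc1 joined the genes that fell, and Orc6, Gins4 and Pcna joined Dut.

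Scaling, transcript length and single libraries moved these counts. With the trend of level on transcript length removed from each library, 7 of the 42 fell (16.7%, beside 8.47% of all genes) and 0 rose by limma, with 3 higher at an unadjusted p under 0.05. With libraries scaled to total bases, the median of all genes moved from -0.13 to -0.41, that of the 42 genes moved to -0.65, and 20 fell (beside 28.6% of all genes) and 0 rose (beside 6.1%), with 0 higher at an unadjusted p under 0.05; limma's voom method called 4 higher. Those added to the falls by total scaling were Orc1, Mcm3, Cdc45, Gins1, Fen1 and Chaf1b. Relative to the median of all genes the replication genes lay 0.23 lower, 0.24 lower and 0.26 lower on the log2 scale with the main scaling, total scaling and the length trend removed. The number that fell was 2 without WT replicate 1, 7 without WT replicate 3 and 6 without HdR replicate 2, and was 14, 12 and 10 without WT replicate 2, HdR replicate 1 and HdR replicate 3. The median of the 42 genes less that of all genes was -0.23, -0.22 and -0.26 without WT replicate 1, WT replicate 3 and HdR replicate 2. The share of all genes that fell in fits without a library is not given here. The counts therefore do not tell a loss of calls over all genes from a change in the 42. Mcm6 and Hells fell in all 6 of these fits, and Mcm6 was the only gene of the 42 that was called under each of the 17 settings tried.

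**Figure D1:**
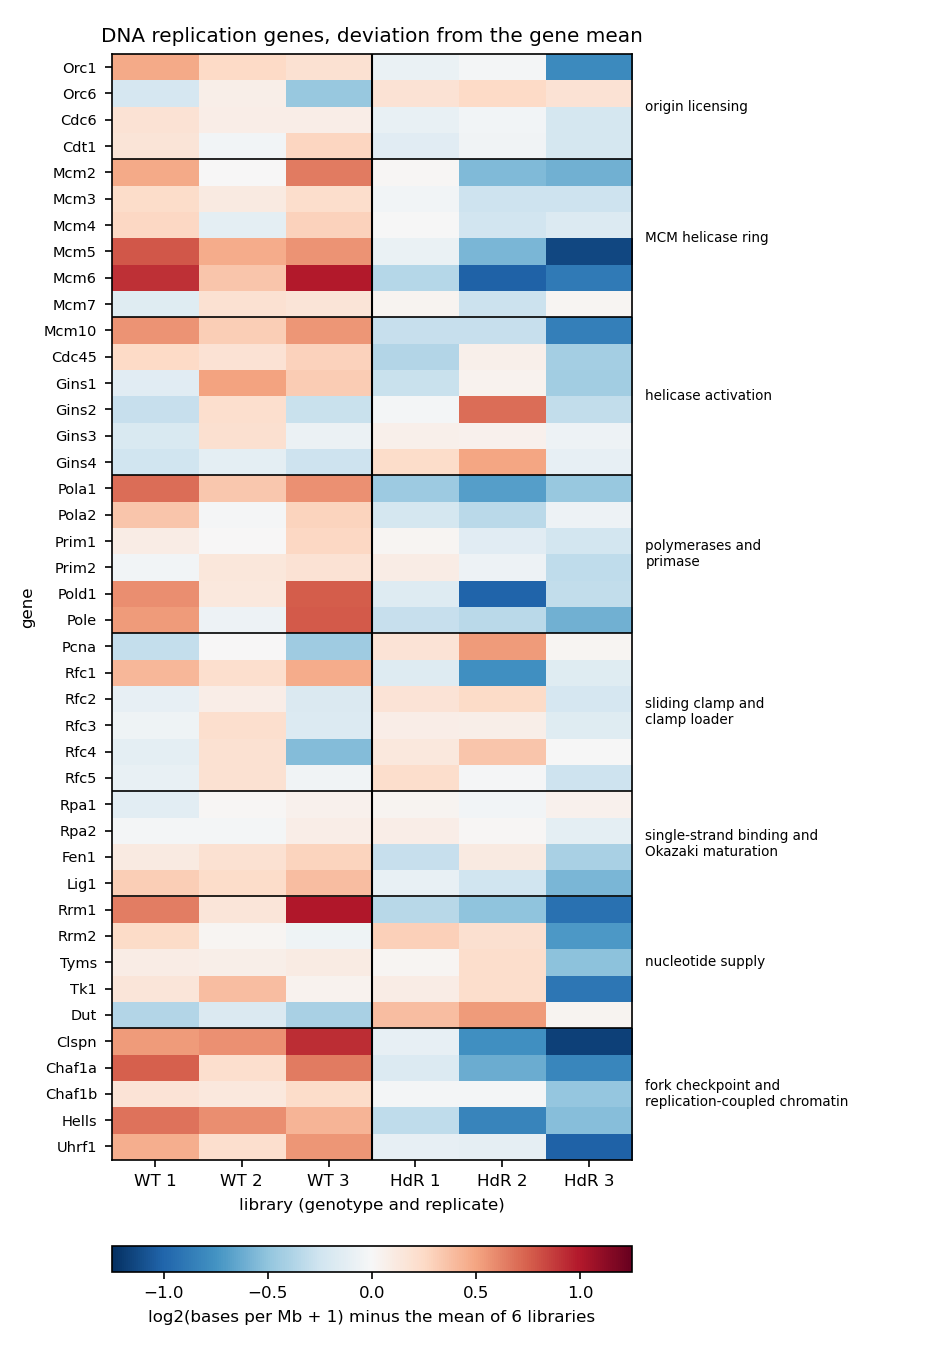
Deviation of each of the 42 genes (rows, by role) from its mean over the 6 libraries (columns), on the log2(bases per Mb + 1) scale; red is above and blue below the gene's mean. HdR replicate 3 held the lowest level for 26 of the 42 genes and the highest for 0.

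The 6 samples did not divide evenly. The median deviation of the 42 genes from their means was 0.18, 0.17 and 0.24 on the log2 scale in WT replicates 1 to 3, and -0.03, -0.04 and -0.31 in HdR replicates 1 to 3. HdR replicate 3 had the lowest level for 26 of the genes, HdR replicate 2 for 8, WT replicate 3 for 6 and WT replicate 1 for 2. The summed level of the 42 genes was 1094, 1114 and 1091 in WT and 1053, 1112 and 878 in HdR, so that the sums overlapped between genotypes. Pcna alone made up 178 to 353 of each sum. Without HdR replicate 3, the median change was -0.24, which is 0.10 below the median of all genes.

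Origin licensing genes did not pass the test: of the 4, 0 fell and 0 rose by limma, with 1 lower and 1 higher at an unadjusted p under 0.05 and 1 each way by voom. Orc1, which encodes the largest subunit of the origin recognition complex, stood at 4.44, 3.66 and 3.50 in WT and at 2.70, 2.86 and 1.27 in HdR. All HdR samples were below all WT samples, with a log2 change of -0.61 ± 0.24 (SE, limma adjusted p = 0.0807, and 0.0432 with the replicate block). Orc6, another subunit of the complex, went the other way, with 42.6, 52.2 and 35.2 in WT and 55.9, 59.1 and 55.9 in HdR. Its groups did not overlap either, with a log2 change of 0.40 ± 0.17 (SE, limma adjusted p = 0.103, and 0.0485 with the block), and 0.07 with the length trend removed. Cdc6 and Cdt1, which load the helicase, had log2 changes of -0.23 and -0.26. The change of Cdc6 was 0.14 with the length trend removed.

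Within the MCM helicase ring, 3 of the 6 subunit genes fell and 3 did not pass. The ring has one copy of each of its subunits, yet their transcripts differed in how far they moved. Mcm6 (chr1:128331590-128359664, minus strand, GENCODE M21 on GRCm38) had the largest log2 change of the 42 genes, from 68, 45.5 and 71.6 in WT to 27.6, 17.2 and 18.8 in HdR. Its highest HdR sample was below its lowest WT sample, and the mean fell 2.91-fold (log2 change -1.50 ± 0.24, SE, limma adjusted p = 0.00788). Mcm5 fell 2.34-fold, from 23.9, 19.0 and 20.4 to 12.7, 8.79 and 5.60, again without overlap (log2 change -1.20 ± 0.26, SE, limma adjusted p = 0.0156). Mcm2 stood at 14.0, 9.82 and 16 in WT and at 9.92, 6.35 and 6.08 in HdR. Here HdR replicate 1 reached just above WT replicate 2, and the adjusted p of limma was 0.0442 (log2 change -0.76 ± 0.24, SE).

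The other three ring genes lay nearer to no change. Mcm3 stood at 16.3, 15 and 16.2 in WT and at 13.4, 11.4 and 11.3 in HdR, without overlap but short of the threshold (log2 change -0.37 ± 0.16, SE, limma adjusted p = 0.108). Mcm4 levels were 27.8, 21.1 and 28.4 in WT and 23.0, 19.4 and 20.4 in HdR, and they overlapped. Mcm7 levels were 29.0, 36.8 and 36.2 in WT and 33.0, 26.6 and 32.8 in HdR, which also overlapped. The log2 changes of Mcm4 and Mcm7 were -0.28 and -0.14, and that of Mcm7 was 0.01 with quantile normalisation and 0.09 with voom. With the length trend removed, Mcm5 and Mcm6 still passed, with log2 changes of -1.0 and -1.17 (limma adjusted p = 0.0295 and 0.0117), and Mcm2 did not, with -0.54. The call of Mcm5 was lost without WT replicate 1 or HdR replicate 2, and that of Mcm2 when WT replicate 1 or 3 or HdR replicate 2 or 3 was left out.

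Because the subunits act in one ring, their levels per kb of the longest annotated transcript were also expressed as shares of the ring's summed level. The share of Mcm6 was 31.9%, 25.1% and 31.7% in WT and 18.4%, 15.2% and 15.5% in HdR. The share of Mcm7 was 20%, 29.9% and 23.6% in WT and 32.4%, 34.5% and 39.9% in HdR. Mcm6 thus had the largest share in WT replicates 1 and 3, and Mcm7 had it in WT replicate 2 and in all HdR samples. The share of Mcm5 was 13.2% ± 1.43 in WT and 8.95% ± 2.62 in HdR (SD, n = 3), that of Mcm4 was 15.1% ± 0.835 and 19.9% ± 1.12, and that of Mcm3 was 9.75% ± 0.709 and 12% ± 0.667. These 5 shares did not overlap between genotypes, whereas that of Mcm2 did. A share rises when other shares fall, so a higher share of Mcm7 goes with its slightly lower level.

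**Figure D2:**
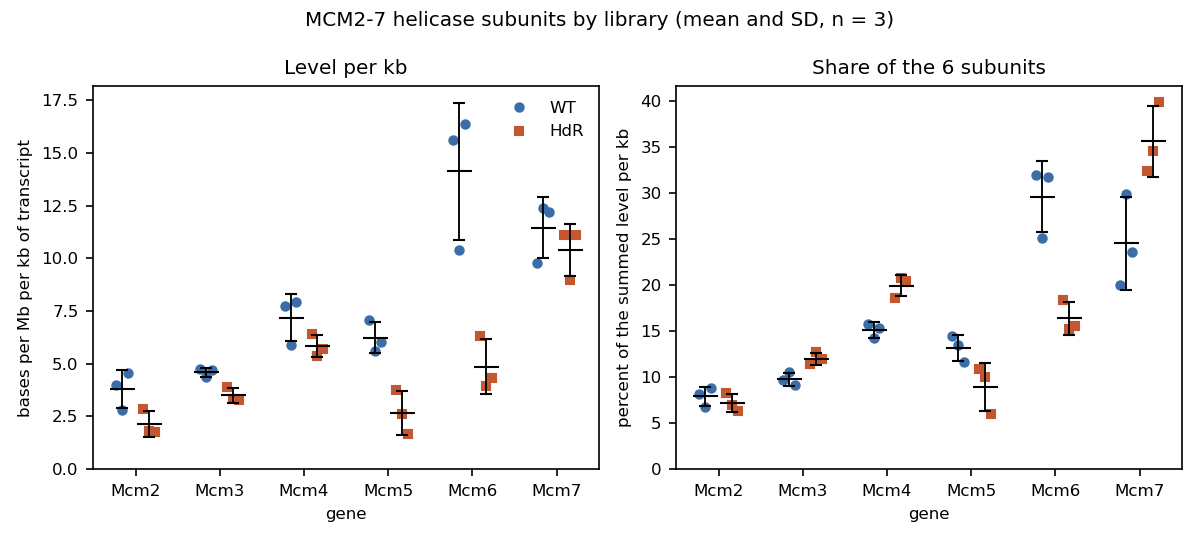
Levels of the 6 MCM ring genes in bases per Mb per kb of transcript (left) and as percent of their sum (right), by library; circles are WT, squares HdR, and lines give the mean and SD (n = 3). Mcm6 has the widest gap between genotypes, and its share went from 29.6% to 16.4%.

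The same shares were computed for 25 subunits in 7 complexes, which gave 22 shares to test. Of these, 14 did not overlap between genotypes, each with the smallest p that an exact permutation test of 3 against 3 allows, 0.1 (two-sided, 0.157 after Benjamini-Hochberg adjustment), so that no share could reach 0.05. In GINS, the share of Gins1 was 29.5% ± 3.92 in WT and 18.6% ± 0.923 in HdR, and that of Gins4 was 53.4% ± 4.31 and 63.9% ± 1.59 (SD, n = 3). In polymerase alpha-primase, the share of Pola1 was 21.3% ± 1.94 and 12.9% ± 1.3, and that of Prim1 was 46.0% ± 1.32 and 51.7% ± 1.0 (SD, n = 3). In the clamp loader, the share of Rfc1 was 16.5% ± 3.83 and 9.37% ± 2.79, and that of Rfc4 was 47.1% ± 5.3 and 55.5% ± 3.15 (SD, n = 3). The shares of Rpa1 and Rpa2 overlapped. The subunits also differ in transcript length, so the trend with length given below enters these shares, and its part in them was not tested.

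Among the 6 genes of helicase activation, Mcm10 fell and the others did not pass. Mcm10, which promotes the step from loaded ring to working helicase, went from 5.49, 4.43 and 5.43 to 2.58, 2.60 and 1.43. Every HdR sample was below every WT sample, a fall of 2.32-fold (log2 change -0.95 ± 0.22, SE, limma adjusted p = 0.0167), and the call was lost without WT replicate 1 or WT replicate 3. Nor did it pass with the length trend removed (log2 change -0.57, limma adjusted p = 0.103). Cdc45, a fixed partner of the moving helicase, stood at 8.75, 8.29 and 9.0 in WT and at 5.34, 7.56 and 5.09 in HdR. Its groups did not overlap, but it missed the threshold (log2 change -0.48 ± 0.19, SE, limma adjusted p = 0.0837).

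The GINS genes, whose products form one 4-part complex, did not move in one direction. Gins1 had a log2 change of -0.45 that did not pass, and passed at -0.74 with total scaling and at -0.92 with the length trend removed (limma adjusted p = 0.0327 and 0.0175). Gins4 stood at 29.8, 32.7 and 29.6 in WT and at 42, 50.5 and 33.0 in HdR. All HdR samples were above all WT samples (log2 change 0.42 ± 0.18, SE, limma adjusted p = 0.109, and 0.0449 with the block), while the change with the length trend removed was 0.04. Gins2 levels were 17.7, 25.5 and 17.9 in WT and 21.5, 36.2 and 17.5 in HdR, with HdR replicate 2 standing highest. Gins3 levels were 4.60, 6.34 and 5.05 in WT and 5.67, 5.63 and 5.11 in HdR. Both overlapped, with log2 changes of 0.24 and 0.04 that were -0.07 and -0.23 with total scaling. Gins2 shares 2758 nt of annotated exon with Gse1 on the opposite strand, and as the use of strand in counting is not given in the sources used here, reads of the pair cannot be told apart.

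Of the polymerase and primase genes, Pola1, Pold1 and Pole fell, which encode the catalytic subunits of the 3 replicative polymerases. For polymerases delta and epsilon, only the catalytic subunit was in this list. Among their other subunits, tested in a further list, Pole2 fell, Pold4 and Pole4 rose, and Pold2, Pold3 and Pole3 did not pass. The longest transcripts of Pola1, Pold1 and Pole were 5346, 3496 and 7163 nt, beside 2878, 3128 and 2447 nt for Pola2, Prim1 and Prim2. Pola1, the polymerase that extends primers, went from 32.8, 25.4 and 30.1 to 14.3, 11.9 and 14.0. The HdR samples lay close together and well below WT, a fall of 2.19-fold (log2 change -1.07 ± 0.17, SE, limma adjusted p = 0.00793). Pold1, the catalytic subunit of the polymerase that copies mainly the lagging strand, stood at 7.83, 5.47 and 9.03 in WT and at 4.30, 1.96 and 3.79 in HdR, without overlap (log2 change -0.98 ± 0.27, SE, limma adjusted p = 0.0295). Pole, its counterpart on the leading strand, had a mean of 7.93 ± 2.48 in WT and 3.95 ± 0.566 in HdR (SD, n = 3, log2 change -0.82, limma adjusted p = 0.0354). Pola2, Prim1 and Prim2, the other subunits of polymerase alpha-primase, had log2 changes of -0.41, -0.23 and -0.19 and did not pass, and that of Prim2 was 0.05 with quantile normalisation. Of the 3 calls, that of Pola1 was kept with the length trend removed (log2 change -0.66, limma adjusted p = 0.0177). Pold1 was then at -0.76 ± 0.23 and Pole at -0.31 ± 0.21 (SE, limma adjusted p = 0.0518 and 0.308). Leaving out WT replicate 1 ended all 3 calls, leaving out WT replicate 3 or HdR replicate 2 ended those of Pold1 and Pole, and leaving out HdR replicate 1 or HdR replicate 3 ended that of Pole.

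Of the 6 genes of the sliding clamp and its loader, 1 fell and the others did not pass. Pcna, which encodes the clamp, was the most abundant of the 42 genes per kb of transcript, with mean levels of 136 bases per Mb per kb in WT and 192 in HdR. The next in WT was Orc6, with 29.6 on the same scale. Pcna levels not divided by length were 199, 245 and 178 in WT and 275, 353 and 248 in HdR. All HdR samples were above all WT samples, by a narrow margin between HdR replicate 3 and WT replicate 2 (log2 change 0.49 ± 0.20, SE, limma adjusted p = 0.0866, and 0.0124 with the block). Its change was 0.17 with total scaling and 0.17 with the length trend removed. The annotation holds 2 named pseudogenes of Pcna, whose reads may be counted with it or apart from it.

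Rfc1, the large subunit of replication factor C, was the member of this group that fell, from 46.1, 39.8 and 47.6 to 30.5, 19.7 and 30.7 (log2 change -0.72 ± 0.20, SE, limma adjusted p = 0.0300). HdR replicate 2 was lowest, and the call was lost without it, without WT replicate 1, without WT replicate 3 and with the length trend removed (log2 change -0.36). Its 4 small partners did not pass. Rfc2 stood at 31.1, 35.4 and 29.3 in WT and at 37.6, 39.6 and 28.7 in HdR, and Rfc3 at 25, 30.1 and 22.9 and at 27.4, 27.3 and 23.2. Rfc4 stood at 35.7, 44.4 and 26.3 in WT and at 42.8, 49.8 and 38.7 in HdR. The groups overlapped for these genes and for Rfc5, whose log2 change was -0.03. The changes of Rfc2 and Rfc3 were 0.13 and 0.00 with the main scaling and -0.18 and -0.30 with total scaling, and that of Rfc4 was 0.32 and, with the length trend removed, -0.08. Rfc5 was at 0.03, 0.18 and 0.07 with median-of-ratios scaling, quantile normalisation and voom.

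**Figure D3:**
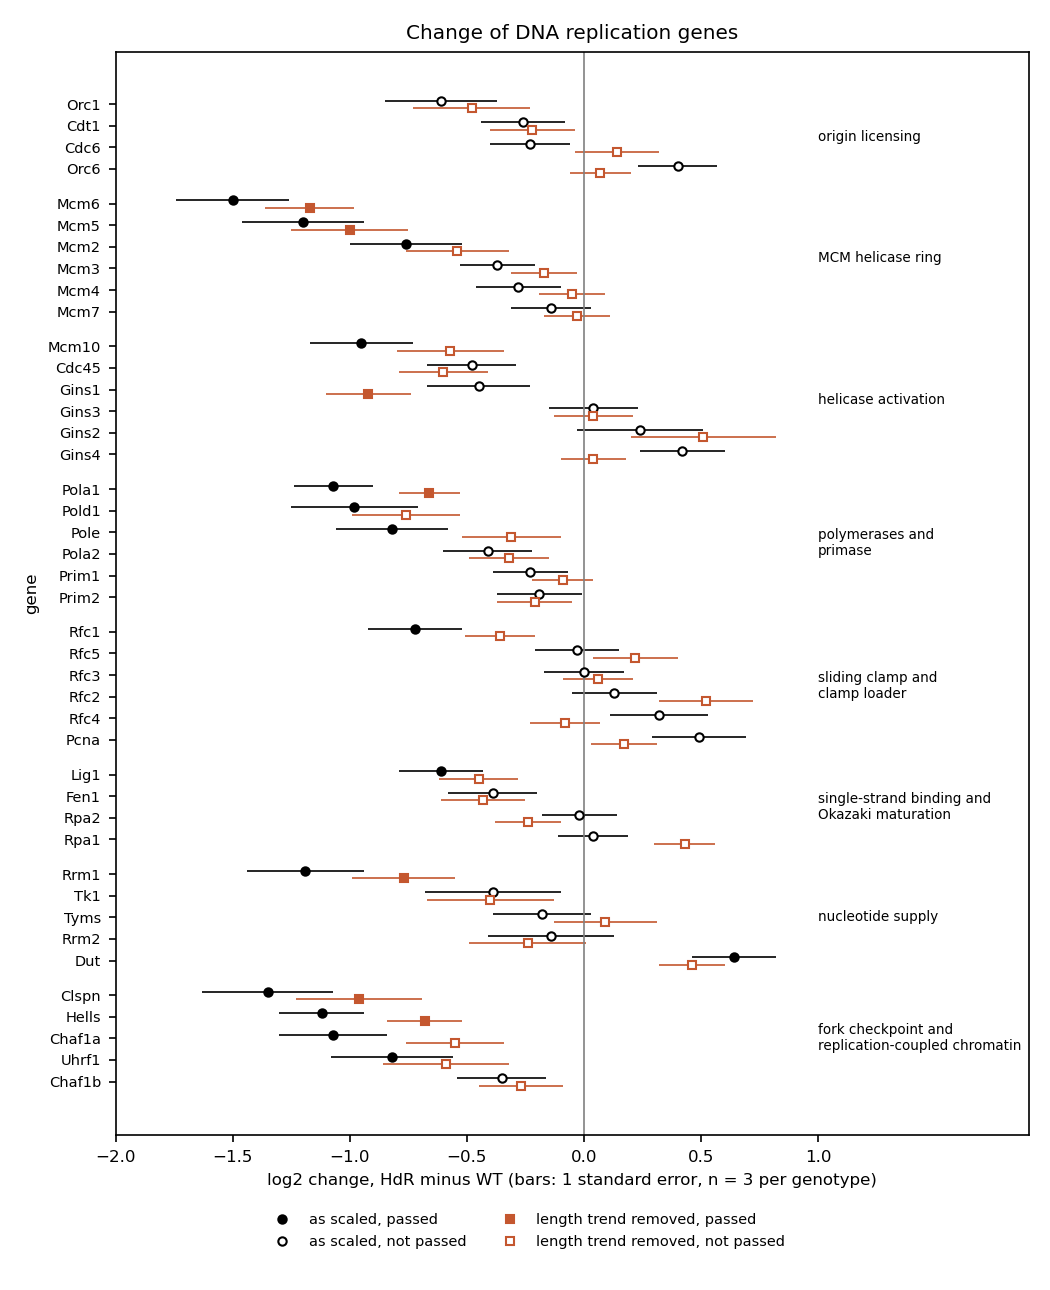
Log2 change (HdR minus WT, bars 1 SE, n = 3 per genotype) of the 42 genes by role, as scaled (circles) and with the length trend removed (squares); filled symbols passed the threshold. Mcm6, Mcm5, Pola1, Rrm1, Clspn and Hells are filled in both, and Gins1 only with the length trend removed.

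Of the single-strand binding and Okazaki fragment genes, Lig1 fell. Lig1, the ligase that seals Okazaki fragments, went from 14.8, 14.0 and 15.7 to 11, 9.75 and 7.64, without overlap (log2 change -0.61 ± 0.18, SE, limma adjusted p = 0.0365). The call was lost with the length trend removed (log2 change -0.45) and when WT replicate 1 or 3 or HdR replicate 2 or 3 was left out. Fen1, the nuclease that trims the flaps of these fragments, stood at 12.6, 13.4 and 14.3 in WT and at 9.37, 12.6 and 8.53 in HdR. HdR replicate 2 came up to the lowest WT sample, and the gene did not pass (log2 change -0.39 ± 0.19, SE, limma adjusted p = 0.140). Fen1 shares 1909 nt of annotated exon with Tmem258. Rpa1, which binds single-stranded DNA at the fork, stood at 34.7, 38.5 and 39.6 in WT and at 39.0, 37.2 and 39.4 in HdR, which overlapped (log2 change 0.04, and -0.28 with total scaling). Rpa2 lay at -0.02, and at 0.04 and 0.19 with median-of-ratios scaling and quantile normalisation.

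Nucleotide supply held both a large fall and the one rise. Rrm1 (chr7:102441695-102469771, plus strand), the large subunit of ribonucleotide reductase, which makes deoxyribonucleotides, went from 57.9, 41.1 and 74.7 to 28.9, 25.7 and 18.8. No HdR sample reached the WT range, a fall of 2.36-fold (log2 change -1.19 ± 0.25, SE, limma adjusted p = 0.0142). It passed with the length trend removed, at -0.77 (limma adjusted p = 0.0437), and did not pass without WT replicate 1 (limma adjusted p = 0.0619). Rrm2, the small subunit of the same enzyme, which is made anew in each S phase, stood at 19.8, 17.0 and 16 in WT and at 20.7, 19.3 and 9.77 in HdR. It did not pass (log2 change -0.14, and 0.08 with quantile normalisation), and HdR replicate 3 was its lowest sample. The share of Rrm1 in the RNA of the enzyme, per kb, was 53.9%, 49.2% and 65.1% in WT and 35.8%, 34.8% and 43.6% in HdR, without overlap.

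Dut (chr2:125247190-125258608, plus strand) encodes the enzyme that removes dUTP and so keeps uracil out of DNA. It rose 1.59-fold, from 25.3, 28.8 and 24.5 to 43.4, 48.0 and 33.6. All HdR samples were above all WT samples (log2 change 0.64 ± 0.18, SE, limma adjusted p = 0.0303). The change was 0.33 with total scaling and 0.46 with the length trend removed, and the gene passed in neither (limma adjusted p = 0.175 and 0.0505). The call was also lost when WT replicate 1 or 3 or HdR replicate 1 or 2 was left out. Tyms and Tk1, which make and salvage thymidine nucleotides, had log2 changes of -0.18 and -0.39 and did not pass. For Tk1 the level in HdR replicate 3 was 8.24, beside 16.8 to 21.6 in the other 5 samples, and for Tyms it was 20, beside 29.7 to 34.1. That of Tyms was 0.09 with the length trend removed.

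Genes of the fork checkpoint and of chromatin assembly at the fork held the highest share of falls among the roles, 4 of 5, beside 17.9% of all genes tested. Their median transcript was also the longest of the roles, at 5027 nt, and 32.4% of all genes above 4168 nt fell. With the length trend removed 2 of the 5 fell, beside 2 of 6 in the MCM ring and 8.47% of all genes. Clspn (chr4:126556935-126593903, plus strand) encodes claspin, the adaptor through which the stalled fork activates CHK1. The fold between its group means was the largest among the 42 genes, a fall of 3.09-fold, from 6.17, 6.39 and 8.44 to 3.64, 1.93 and 1.22 (log2 change -1.35 ± 0.28, SE, limma adjusted p = 0.0142). Hells, a chromatin remodeller needed for DNA methylation, fell 2.23-fold, from 43.8, 41.1 and 36.7 to 21.5, 14.8 and 18.3 (log2 change -1.12 ± 0.18, SE, limma adjusted p = 0.00805). For both genes the HdR samples lay below all WT samples, and both passed with the length trend removed (log2 changes -0.96 and -0.68, limma adjusted p = 0.0421 and 0.0253). The call of Clspn was lost without WT replicate 1.

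Chaf1a, the large subunit of the chromatin assembly factor CAF-1, had a mean of 12 ± 2.43 in WT and 5.23 ± 1.48 in HdR (SD, n = 3, log2 change -1.07, limma adjusted p = 0.0156). It shares 2542 nt of annotated exon with Ubxn6 on the opposite strand. Uhrf1, which brings the maintenance DNA methyltransferase to the fork, had a mean of 14.8 ± 1.89 in WT and 8.30 ± 2.95 in HdR (SD, n = 3, log2 change -0.82, limma adjusted p = 0.0447). Neither passed with the length trend removed, at -0.55 and -0.59. Chaf1a lost its call without WT replicate 1 or HdR replicate 2, and Uhrf1 kept its call in 1 of the 6 fits that left out a library, that without WT replicate 2. Chaf1b, the other CAF-1 subunit measured, had a log2 change of -0.35 without overlap and did not pass.

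Transcript length moved with these results. The 42 genes were typical in length, with a median of 3293 nt for the longest annotated transcript (GENCODE M21, GRCm38), beside 3270 nt over 14903 genes with a length. Their log2 change was lower the longer the transcript (Pearson r = -0.63 and Spearman rho = -0.56 across the 42 genes, which share the same 6 libraries and are not independent replicates), and r was -0.48 across all genes. None of the 12 replication genes of up to 2498 nt fell, 5 of 18 between 2498 and 4168 nt did, and 9 of 12 above 4168 nt did. Among all genes 5.88%, 15.9% and 32.4% of the genes in these 3 ranges fell. Dut, the gene that rose, was in the shortest range, in which 27.5% of all genes rose.

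Within the same 3 ranges, the median change of the replication genes was -0.08, -0.32 and -1.01, beside 0.28, -0.16 and -0.45 over all genes, so that it was the lower of the pair in each range. The slope of the library's level on log2 length was 0.19, 0.0404 and 0.247 in WT replicates 1 to 3 and -0.125, -0.272 and -0.0805 in HdR replicates 1 to 3, positive in every WT sample and negative in every HdR sample. Genotype and this slope therefore cannot be told apart by design, and the part of the slope in the results was not tested beyond its removal. With the trend removed, the 7 genes that fell were Mcm5, Mcm6, Gins1, Pola1, Rrm1, Clspn and Hells, of which 6 were among the 15 calls before. The median of the 42 genes was then -0.26, beside 0.00 over all genes.

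**Figure D4:**
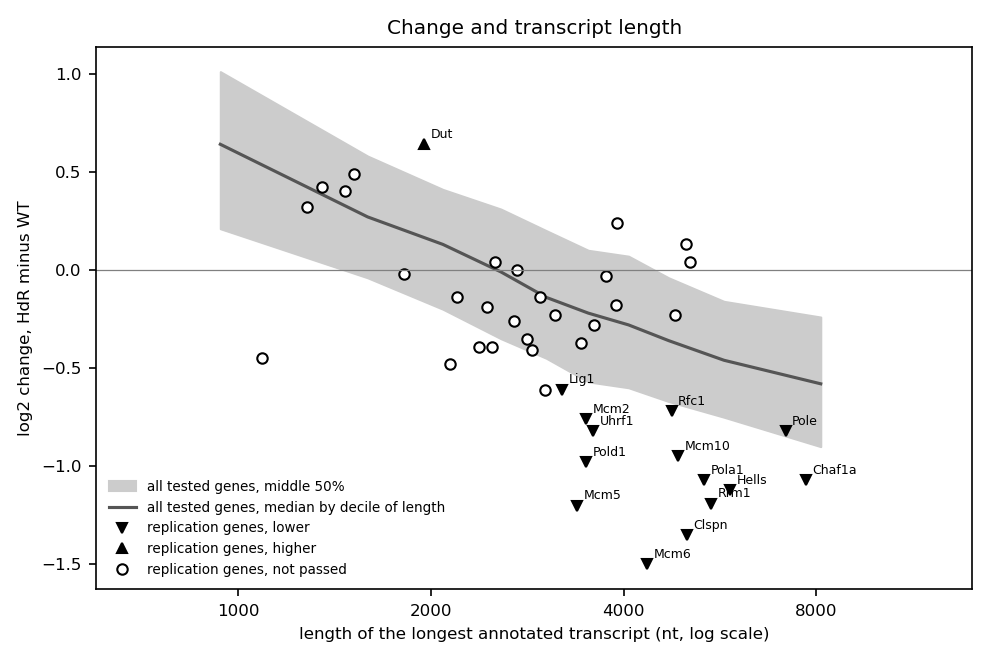
Log2 change (HdR minus WT) against the length of the longest annotated transcript (log axis) for the 42 replication genes; triangles passed the test and open circles did not, and the line and band give the median and middle 50% of all tested genes by decile of length. The genes that fell lie below the line, and 9 of the 14 are longer than 4168 nt.

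A further 4 lists set the replication genes beside the rest of the cell cycle. Of 45 other replication genes, 10 fell and 7 rose (22.2% and 15.6%, beside 17.9% and 12.7% of all genes). After removal of the length trend 6 fell and 5 rose (13.3% and 11.1%, beside 8.47% and 10.9%). With total scaling 19 fell and 3 rose, beside 28.6% and 6.1% of all genes. Dnmt1, the maintenance DNA methyltransferase, fell 2.62-fold, and Topbp1, an activator of the checkpoint kinase ATR and of origin firing, fell 2.07-fold (limma adjusted p = 0.0142 and 0.0127). Tipin, of the fork protection complex, rose 2.01-fold and Pold4, the smallest subunit of polymerase delta, rose 2.15-fold (limma adjusted p = 0.0145 and 0.0147). The median log2 change of this list was -0.34. Without WT replicate 1 no gene of the list passed in either direction, and 3 fell and 3 rose without WT replicate 3 and likewise without HdR replicate 2.

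Of 34 G1/S regulators tested, 11 fell and 3 rose (32.4% and 8.82%, beside 17.9% and 12.7% of all genes), with a median of -0.27. After removal of the length trend 2 fell and 1 rose (5.88% and 2.94%, beside 8.47% and 10.9%). Ccna2, a cyclin of S phase and G2, went from a mean of 46.1 ± 5.57 to 24.3 ± 6.23 (SD, n = 3, limma adjusted p = 0.0162). Mycn, a transcription factor that drives proliferation in the hair matrix, fell from 2.34 ± 0.202 to 0.556 ± 0.207 (SD, n = 3, limma adjusted p = 0.00828). Its HdR levels (0.366, 0.777 and 0.524) all lay below 1 base per Mb, and the thinnest rested on 6 read pairs. It thus passed the filter only through its WT samples. Rbl1, a relative of the retinoblastoma protein, and Ccnd2, a cyclin of G1, fell 1.64-fold and 1.86-fold (limma adjusted p = 0.0205 and 0.0212), and neither passed with the length trend removed. Of the 11 checkpoint genes, Chek1 and Atr fell (18.2%, near the 17.9% of all genes), 1.94-fold and 2.04-fold (limma adjusted p = 0.0145 and 0.0218). Once the length trend was removed, Chek1 passed and Atr did not (log2 change -0.50, limma adjusted p = 0.0926). In this list 0 rose by limma, with 1 higher at an unadjusted p under 0.05 and 1 by voom. With WT replicate 1 or WT replicate 3 left out, none of the falls in these G1/S and checkpoint lists passed.

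Of 25 mitosis genes, 18 fell (72.0%) and 0 rose by limma or voom, also at an unadjusted p under 0.05, with a median log2 change of -1.10. Of the 25, 16 fell with the length trend removed. Mki67, the proliferation marker, stood at 112, 71.5 and 119 in WT and at 29.4, 15.9 and 12.1 in HdR, a fall of 5.27-fold (limma adjusted p = 0.00442). Cenpf, a kinetochore protein, fell 5.99-fold, Kif11, a spindle motor, 3.74-fold, and Prc1, which bundles the central spindle, 2.93-fold (limma adjusted p = 0.00615, 0.00935 and 0.00582). The summed level of the list was 477 to 626 in WT and 121 to 290 in HdR, and did not overlap, unlike the sum of the replication genes. The count of falls was 7 without WT replicate 1, 11 without WT replicate 3 and 12 without HdR replicate 2. The difference between the 2 lists was not tested.

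**Figure D5:**
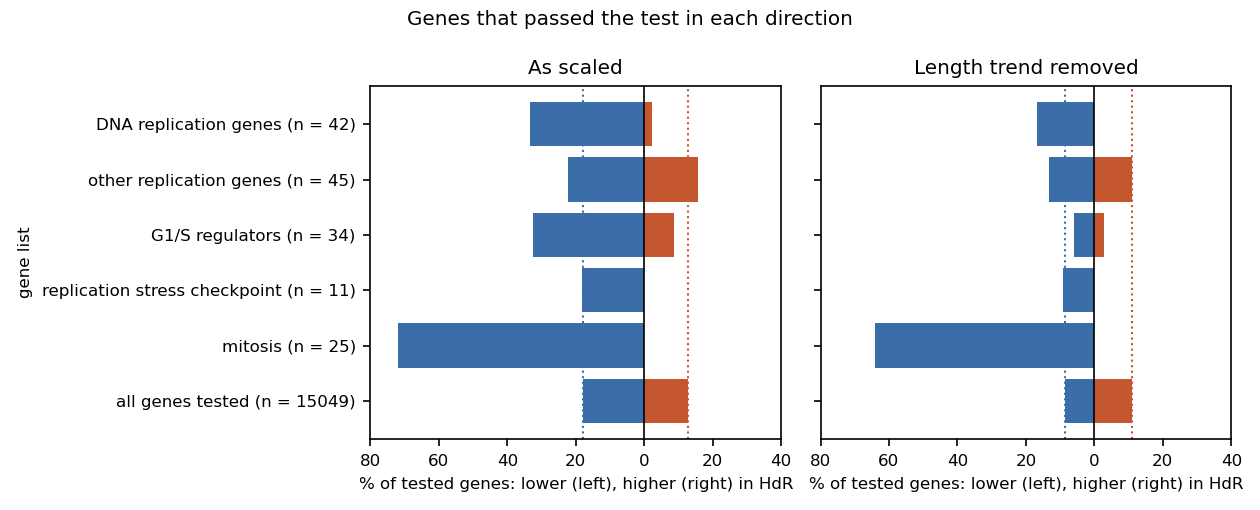
Percent of the tested genes of each list that passed the test lower (left of 0) and higher (right of 0) in HdR, as scaled and with the length trend removed; dotted lines mark the percentages over all tested genes. For the 42 replication genes these are 33.3% lower and 2.38% higher as scaled, and 16.7% and 0.0% with the length trend removed.

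Markers of the cells that ear skin holds also differed between the genotypes. Of 28 hair follicle genes tested, 24 fell and 1 rose, with a median log2 change of -2.09 and sums of 993 to 1492 in WT and 518 to 1001 in HdR. Of 14 basal keratinocyte genes, 4 fell and 0 rose by limma (0 higher at an unadjusted p under 0.05 and 0 by voom), with sums of 6903 to 7887 in WT and 4944 to 5721 in HdR. Monocyte and macrophage markers numbered 14, of which 7 rose and 0 fell by limma (0 lower at an unadjusted p under 0.05 and 0 by voom), with sums of 1215 to 2295 in WT and 3259 to 3681 in HdR. Of 8 neutrophil genes tested, 5 rose and 0 fell (0 lower likewise), with sums of 186 to 235 in WT and 760 to 3237 in HdR. S100a8 and S100a9 held most of the sum in every library, and S100a9 alone went from 96.3, 103 and 70.3 to 531, 1708 and 396. Retnlg, Cxcr2 and Mmp8 also rose, and Csf3r, Mmp9 and Lcn2 did not pass. Ly6g, Camp and Ltf were below 1 base per Mb in all libraries. T cell markers gave 1 fall among 9, and the B cell markers Cd79a and Ms4a1 were below 1 base per Mb in all libraries. Of 10 fibroblast genes 2 fell and 1 rose, and of 9 endothelial genes 3 fell. For comparison, 17.9% of all genes fell and 12.7% rose. After removal of the length trend, 1 basal keratinocyte gene fell and 1 rose, 1 fibroblast gene fell and 3 rose, and 1 endothelial gene fell and 1 rose. The sums of the basal keratinocyte, macrophage and neutrophil lists did not overlap between genotypes. Those of the hair follicle, T cell, fibroblast and endothelial lists did overlap. A few abundant genes carried some of these sums. Mt4, the hair follicle gene that rose, stood at 179, 372 and 188 in WT and at 396, 743 and 501 in HdR. Without it the hair follicle sums did not overlap. Lyz2, at 562, 820 and 374 in WT and 1875, 1536 and 1927 in HdR, was the largest part of the macrophage sums. Krt5 and Krt14 held most of the basal keratinocyte sums. Without Lyz2, and without Krt5 and Krt14, the sums of those lists overlapped. The part of these markers in the result was not tested.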

How the data were processed

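RNA from ear skin of 3 WT and 3 HdR samples was sequenced, and the genome build was GRCm38 per the submitters' processing notes. Which aligner, counting program and annotation were used, and whether strand was, is not given in the sources used here. As deposited, the authors' file is a table of coverage, a signal of aligned bases summed per gene: of values below 3000, 10.3% were divisible by 300, as sums over pairs of 150-base reads would be, against 0.333% by chance. As these are not read counts, a count model was not used.

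Columns were matched to samples by their names, scaled by TMM (trimming 30% by log ratio and 5% by intensity) and expressed as bases per Mb. The test was limma-trend with robust variances (limma 3.58.1 in R 4.3.3) on log2(value + 1), for genes that reached 1 base per Mb in 3 or more libraries, two-sided, without covariates, with Benjamini-Hochberg adjustment over 15049 genes. The procedure was tested on simulated data. Other settings were scaling by median of ratios, by total bases or by quantiles, limma's voom weighted by sample quality, a filter at 5 bases per Mb or none, a pseudocount of 0.1, a threshold of 0.1, the replicate block, each library left out in turn, and a natural spline on log2 transcript length (4 degrees of freedom, longest transcript in GENCODE M21, which holds 23095 of the 23518 symbols) removed from each library, alone, with the block or without HdR replicate 2. Shares within complexes, with each library left out in turn, used exact permutation tests.

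The labels number the replicates and do not say what a number stands for. After removal of genotype means, same-numbered WT and HdR samples correlated with r = 0.163, 0.416 and 0.366 for numbers 1 to 3. Samples of different number had r from -0.377 to 0.159, and the highest was that of WT replicate 1 with HdR replicate 3. With 3 samples per genotype, these values cannot show that the numbers pair samples. The numbers were taken as pairs for the block only, and the block is printed where it changes a call.

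The 42 genes, their roles and all other lists were chosen with earlier results of these data known. Values in every sample are given for Mcm2 to Mcm7, Pcna, the 2 largest changes in each role and each gene with a change above 0, and up to 4 genes of smallest p are named from each other cell cycle list. An annotated exon is shared with another gene by 14 of the 42 genes, in 11 cases with a gene of the table.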

Additional observations from a re-analysis of the deposited data

How the results depend on the processing

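Of the 42 replication genes, 10 to 20 fell under median-of-ratios scaling, total scaling, quantile normalisation, voom, the filter at 5 bases per Mb, the pseudocount of 0.1, the threshold of 0.1 and the replicate block. Fewer fell with no filter (8), with the length trend removed (7, or 8 with the replicate block) and with the trend removed and HdR replicate 2 left out (3). The count that rose was 1, and became 0 with total scaling, no filter, the length trend removed and the trend removed without HdR replicate 2, 4 with voom, with the replicate block and with the block and the trend removed, and 2 at a threshold of 0.1. Leaving out 1 library gave 2 to 14 genes that fell and 0 to 3 that rose. With voom, 4647 of all 15049 genes fell and 3398 rose. Calls over all genes are otherwise given here only for the main fit, total scaling, the replicate block and the length trend removed. The median log2 change ran from -0.65 (total scaling) to -0.13 (quantile normalisation), and from -0.38 to -0.24 with 1 library left out. The cause of these shifts was not tested, other than that fits without a library have fewer samples.

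The replicate block added the calls of Orc1 (lower) and of Orc6, Gins4 and Pcna (higher) and ended none of the 15. Of the 15 calls, 15 were kept by voom and the pseudocount of 0.1, 14 by total scaling and the filter at 5, 13 by median-of-ratios scaling, 11 by quantile normalisation, 8 without a filter, 6 with the length trend removed and 2 without WT replicate 1, and none turned.

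Directions turned only for genes that did not pass. With total scaling the log2 changes of Gins2, Gins3, Rfc2, Rfc3 and Rpa1 were -0.07, -0.23, -0.18, -0.30 and -0.28. With quantile normalisation those of Mcm7, Prim2, Rfc5, Rpa2 and Rrm2 were 0.01, 0.05, 0.18, 0.19 and 0.08, with voom those of Mcm7 and Rfc5 were 0.09 and 0.07, and with median-of-ratios scaling those of Rfc5 and Rpa2 were 0.03 and 0.04. With the length trend removed, alone or with the replicate block, Cdc6, Rfc4, Rfc5 and Tyms were at 0.14, -0.08, 0.22 and 0.09. Without HdR replicate 2 as well, Cdc6, Mcm7, Gins4, Rfc3, Rfc4 and Rfc5 were at 0.02, 0.03, -0.02, -0.01, -0.09 and 0.15. With 1 library left out, Gins2 ran from -0.05 to 0.45, Gins3 from -0.04 to 0.17, Rfc3 from -0.07 to 0.13, Rfc5 from -0.15 to 0.09, Rpa1 from -0.02 to 0.08, Rpa2 from -0.07 to 0.03, Rrm2 from -0.33 to 0.18 and Tyms from -0.33 to 0.04. The thinnest genes, Orc1 and Clspn, rest on 18 read pairs in HdR replicate 3.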

Other observations

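Of 10 further polymerase, loader and RPA subunits, Pold4, Pole4 and Rpa3 rose, with log2 changes of 1.07, 0.73 and 1.06 (limma adjusted p = 0.0147, 0.0242 and 0.0319), and Atad5 and Pole2 fell, with -0.82 and -0.62 (limma adjusted p = 0.0289 and 0.0405). The median log2 change of the 10 subunits was 0.15 and their median transcript length 1857 nt. Among all genes tested 12.7% rose and 17.9% fell, and among all genes of up to 2498 nt 27.5% rose and 5.88% fell. With the length trend removed, Pold4, Pole4 and Pole2 still passed. In nucleotide metabolism, Dtymk, the kinase that makes thymidine diphosphate, rose from 28.5, 36.2 and 23.4 to 61.9, 104 and 49.6, without overlap. Its log2 change was 1.21 (limma adjusted p = 0.0170), and 0.74 with the length trend removed (limma adjusted p = 0.0323). Samhd1, which breaks down deoxyribonucleotides, fell from 193, 241 and 157 to 127, 107 and 89.6 (log2 change -0.85, limma adjusted p = 0.0203), and did not pass with the length trend removed (-0.58, limma adjusted p = 0.0869).

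Among G1/S regulators, 5 of 13 genes of the E2F and RB families fell, namely E2f1, E2f3, E2f7, Rb1 and Rbl1, with log2 changes from -0.79 to -0.69, and 0 rose by limma, with 0 higher at an unadjusted p under 0.05 and 1 by voom. The falls are 38.5% of the 13 genes, beside 17.9% of all genes tested and 32.4% of all genes above 4168 nt. The median transcript of the 13 genes was 4656 nt. E2f7 rested on 7 read pairs in its thinnest library. With the length trend removed none of the 5 genes that fell passed. The CDK inhibitors Cdkn2c and Cdkn1c rose, with log2 changes of 0.78 and 0.48 (limma adjusted p = 0.0292 and 0.0396). With the length trend removed Cdkn2c passed (adjusted p = 0.0347) and Cdkn1c did not. Myc rose and Mycn fell, with log2 changes of 0.82 and -1.11 (limma adjusted p = 0.0377 and 0.00828), and with the length trend removed Mycn passed and Myc did not (0.77, limma adjusted p = 0.0637). Mycn was below 1 base per Mb in every HdR sample. No G1/S regulator that rose, Cdkn2c, Cdkn1c and Myc included, passed when WT replicate 1 or 3 or HdR replicate 2 was left out. With total scaling, which moves the median of all genes, the rises of Pole4, Rpa3, Cdkn2c, Cdkn1c and Myc did not pass, and those of Pold4 and Dtymk did. Genes beyond those of the naming rule were named here after their values were seen.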
